A study of Mus musculus with 6 samples.

Results

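The testis metabolic isozymes are germ cell versions of enzymes and carriers of energy metabolism that most other tissues express from a different gene. Members were chosen by name and read as 5 pairs, each with a testis form and a somatic form: Ldhc and Ldha, Pgk2 and Pgk1, Gapdhs and Gapdh, Pdha2 and Pdha1, and Cyct and Cycs. These 10 genes stood among 54532 genes in the table, and all 10 entered the test, which took in the 15451 genes averaging 1 FPKM or more over the 6 libraries. FPKM is the number of sequenced fragments of a gene, divided by its length and by the size of the library. The pairs had been picked with their levels in these libraries already known, so the differences between genotypes are described here without a p-value for any member.

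RNA was measured in STRA8+ germ cells isolated from mouse testes. STRA8 is a retinoic acid-induced protein of germ cells at meiotic entry. The 3 control libraries carried the genotype Cre, and the 3 conditional knockout (cKO) libraries carried the genotype Srsf1 knockout. Srsf1 encodes a serine- and arginine-rich splicing factor. The labels give no age, Cre driver, isolation method or pooling of animals, and do not say whether libraries came from separate animals.

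Lactate dehydrogenase converts pyruvate and lactate into each other, glyceraldehyde-3-phosphate dehydrogenase and phosphoglycerate kinase are neighbouring steps of glycolysis, the E1 alpha subunit belongs to the pyruvate dehydrogenase complex that feeds the citric acid cycle, and cytochrome c carries electrons between respiratory complexes and triggers apoptosis when released. Germ cells switch on testis forms of these proteins during meiosis or in spermatids. Pgk1 and Pdha1 lie on the X chromosome, which is silenced in pachytene spermatocytes, and their testis forms Pgk2 and Pdha2 are autosomal retrogenes, which are copies made from a spliced messenger RNA.

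The targeted gene checked the labels first. Srsf1 stood at 84.7, 45.2 and 51.9 FPKM in controls 1 to 3 and at 5.08, 4.94 and 5.17 FPKM in cKO 1 to 3, which left 8.36% of the control mean (log2 fold change −3.29 ± 0.22, SE; limma adjusted p = 5.6e-05). Stra8, the gene of the isolation marker, spanned 222 to 262 FPKM among controls and 242 to 313 FPKM among cKO libraries and was not called (limma adjusted p = 0.36). Ddx4, a helicase gene of germ cells, spanned 153 to 169 FPKM and 129 to 145 FPKM (log2 fold change −0.24 ± 0.08, SE; limma adjusted p = 0.048), a call that was lost without any 1 library other than cKO 2. Of 5 germ cell markers in all, limma called 2 lower (Ddx4 and Mael) and 1 higher (Dazl), against 22.2% and 11.8% of all tested genes. Dazl had a log2 fold change of 0.43 ± 0.10 (SE) and Mael one of −0.43 ± 0.08 (SE), and Tex101 was not called. The libraries held 14447887 to 17310353 fragments. Markers of some other stages moved with genotype in these cells. The counts that follow stand beside the same 22.2% lower and 11.8% higher over all tested genes. Of 8 pachytene spermatocyte markers 7 were called lower in cKO, with a summed level of 349 to 402 FPKM among controls and 114 to 133 FPKM among cKO libraries. All 8 spermatid markers were called lower, with sums of 2364 to 8031 FPKM among controls and 6.15 to 8.74 FPKM among cKO libraries. Tnp1, Tnp2, Prm1 and Prm2, which package DNA in spermatids, carried most of that control sum. A label of cells marked by a protein of meiotic entry does not name spermatids, whose RNA the control libraries held beside that of Stra8 and of the early meiotic prophase markers that go with the label. Those markers summed to 795 to 1063 FPKM among controls and 826 to 1086 FPKM among cKO libraries. Of the 8 genes 1 (Spo11, lower) and 0 of 6 spermatogonial markers were called by limma, although 4 of the 6 were higher at an unadjusted p under 0.05 and 3 were called higher by limma-voom. Of 24 markers of Sertoli, Leydig, peritubular, and macrophage and blood cells, 12 were tested and 1 (Rhox5) was called higher. Their sums of 85.0 to 96.3 FPKM among controls and 65.7 to 140 FPKM among cKO libraries overlapped. The Sertoli marker Clu alone held 42.1 to 63.1 FPKM among controls and 79.3, 32.6 and 44.4 FPKM in cKO 1 to 3. Cldn11, also of Sertoli cells, was likewise highest in cKO 1, at 20.8 FPKM against 6.68 and 9.71 FPKM in cKO 2 and 3. The part of these shifts in the results for the isozymes was not tested, and in bulk RNA fewer cells of a stage and less RNA per cell cannot be told apart.

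The genes differ in structure as well as in level. On the GRCm38 annotation Ldhc (ENSMUSG00000030851) lies on the plus strand of chromosome 7 from 46861203 to 46878142, and Ldha (ENSMUSG00000063229) lies upstream on the same strand from 46841475 to 46855627, with 5575 bases between them. Gapdhs (ENSMUSG00000061099) is on chromosome 7 from 30729775 to 30743681, and Gapdh (ENSMUSG00000057666) on chromosome 6 from 125161715 to 125166467, both on the minus strand. Pgk2 (ENSMUSG00000031233) is on chromosome 17 from 40207015 to 40208640 on the minus strand, and Pgk1 (ENSMUSG00000062070) on chromosome X from 106187100 to 106203699 on the plus strand. Pdha2 (ENSMUSG00000047674) is on chromosome 3 from 141210004 to 141212355, and Pdha1 (ENSMUSG00000031299) on chromosome X from 160122209 to 160138413, both on the minus strand. Cyct (ENSMUSG00000056436) is on chromosome 2 from 76353942 to 76360450, and Cycs (ENSMUSG00000063694) on chromosome 6 from 50562563 to 50566538, both on the minus strand. The retrogenes are recognisable from their exons: the main coding transcripts of Pgk2 and Pdha2 have 1 exon each, against 11 exons each in Pgk1 and Pdha1. Ldhc and Ldha have 8 exons each, Gapdhs 11 against 7 in Gapdh, and Cyct 4 against 3 in Cycs.

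The coding sequences of partners were related but distinct. Identity over aligned coding bases was 75.4% for Ldhc and Ldha, 79.6% for Pgk2 and Pgk1, 78.4% for Gapdhs and Gapdh, 77.8% for Pdha2 and Pdha1, and 80.1% for Cyct and Cycs. The longest identical run between partners was 14 to 22 bases. No stretch of at least 100 bases at 95% identity was found between the members of any pair, and for Ldhc, Pgk2, Pdha2 and Cyct none was found in any other annotated gene. The somatic forms differ in this respect, since the whole coding regions of Ldha, Pgk1, Gapdh and Cycs have such copies in other genes. Genes with such a stretch anywhere in the transcript are all pseudogenes for Ldha and Pgk1, 77 of 81 for Gapdh and 3 of 51 for Cycs.

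The 250 bases upstream of a RefSeq start, the one nearest the 5′ end of the gene in the table, are shown for the 5 testis forms, which fell together in the cKO libraries, and for Ldha, the somatic form that fell with them. They are windows of build GRCm38.p6, written 5′ to 3′ on the strand of the gene, and capitals mark matches on either strand to the cyclic AMP response element (CRE) TGACGTCA, its shorter core TGACG (which lies within the full CRE), the GC box GGGCGG and the TATA box TATAAA.
Ldhc, chr7:46861013-46861262, plus strand: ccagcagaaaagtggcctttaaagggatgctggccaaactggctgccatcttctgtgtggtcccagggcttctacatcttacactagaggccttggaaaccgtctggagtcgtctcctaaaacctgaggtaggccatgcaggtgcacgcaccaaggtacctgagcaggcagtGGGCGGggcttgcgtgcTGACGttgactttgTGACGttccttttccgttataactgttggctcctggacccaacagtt
Pgk2, chr17:40208610-40208859, minus strand: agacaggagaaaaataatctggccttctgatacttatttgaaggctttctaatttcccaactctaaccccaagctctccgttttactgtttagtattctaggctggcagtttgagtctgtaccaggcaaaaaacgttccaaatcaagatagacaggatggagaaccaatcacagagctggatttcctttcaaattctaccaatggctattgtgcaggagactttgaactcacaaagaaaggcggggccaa
Gapdhs, chr7:30743682-30743931, minus strand: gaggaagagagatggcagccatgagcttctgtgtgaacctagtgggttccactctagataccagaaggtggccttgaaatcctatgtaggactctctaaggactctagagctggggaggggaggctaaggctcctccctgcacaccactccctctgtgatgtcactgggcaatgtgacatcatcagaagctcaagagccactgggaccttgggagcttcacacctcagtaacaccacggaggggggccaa
Pdha2, chr3:141212356-141212605, minus strand: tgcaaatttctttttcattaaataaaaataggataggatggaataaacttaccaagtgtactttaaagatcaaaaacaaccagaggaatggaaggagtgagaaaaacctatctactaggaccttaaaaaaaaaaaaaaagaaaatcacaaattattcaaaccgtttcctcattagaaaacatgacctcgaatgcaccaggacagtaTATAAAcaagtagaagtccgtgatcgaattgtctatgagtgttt
Cyct, chr2:76360454-76360703, minus strand: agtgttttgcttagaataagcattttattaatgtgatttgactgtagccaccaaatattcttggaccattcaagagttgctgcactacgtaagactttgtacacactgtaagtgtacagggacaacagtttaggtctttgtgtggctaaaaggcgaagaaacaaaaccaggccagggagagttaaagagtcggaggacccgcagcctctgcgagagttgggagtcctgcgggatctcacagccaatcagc
Ldha, chr7:46845554-46845803, plus strand: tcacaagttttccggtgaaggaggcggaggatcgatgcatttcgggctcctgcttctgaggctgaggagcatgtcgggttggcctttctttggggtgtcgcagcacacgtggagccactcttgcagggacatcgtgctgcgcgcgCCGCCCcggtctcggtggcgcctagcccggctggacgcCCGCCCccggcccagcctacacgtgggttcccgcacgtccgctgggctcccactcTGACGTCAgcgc

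Few motifs were shared. The Ldhc window held TGACG at 2 places and a GC box, the Pdha2 window a TATA box that starts 44 bases before the annotated start, and the Pgk2, Gapdhs and Cyct windows held none of the 4 motifs. The Ldha window held a full CRE starting 12 bases before the start site, and 2 GC boxes. Among the somatic forms not shown, the Cycs window also held a full CRE, starting 169 bases before the start site, and TGACG at 1 further place, the Pgk1 window a GC box, and the Gapdh and Pdha1 windows none of the 4 motifs. The start site of the printed Ldha window is 4329 bases inside the 5′ end of that gene in the table, and for Ldhc the distance is 60 bases. RefSeq gives a further start for Ldhc, Gapdhs and Ldha, 284, 4274 and 5607 bases inside that end. Their windows, not printed here, held 3, 0 and 9 CpG dinucleotides and none of the 4 motifs except TGACG at 1 place in Ldha. Among 32841 mouse promoter windows of the same length, 1.55% held the full CRE, 17.8% held TGACG, 32.8% the GC box and 12.4% the TATA box. The number of CpG dinucleotides in the windows of the testis forms ran from 1 in Gapdhs through 3 in Pgk2, 4 in Pdha2 and 6 in Cyct to 8 in Ldhc, where the median of all windows was 6. Ldha had 25, Cycs 23, Pgk1 17, Pdha1 15 and Gapdh 8. A match in such a window is a description of its letters, and no factor binding was measured.

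**Figure D1:**
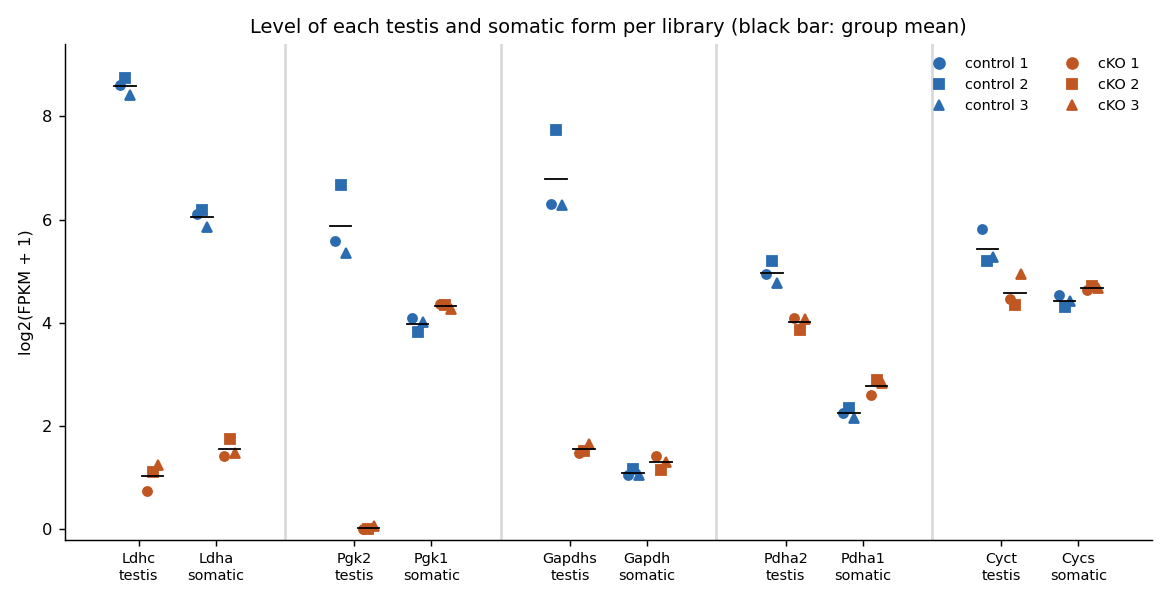
Levels of the 10 genes as log2(FPKM + 1) in each of the 3 control (blue) and 3 cKO (orange) libraries, with black bars for group means. Ldhc, Ldha, Pgk2 and Gapdhs dropped from between 39.7 and 429 FPKM in control to at most 2.35 FPKM in cKO libraries, Pdha2 and Cyct fell less, Pgk1, Pdha1 and Cycs were higher by 1.20- to 1.56-fold, and Gapdh overlapped between genotypes.

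All 5 testis forms were lower in the cKO libraries, and they fell into a group of 3 with at most 1.58% of the control mean left (2.49% without control 2, for Gapdhs) and a group of 2 with 49.6% and 54.5% left. Among the somatic forms, Ldha was down to 2.97%, Pgk1, Pdha1 and Cycs were higher by 1.20- to 1.56-fold, and Gapdh overlapped between genotypes. In the fit across all genes the testis forms were called lower in 5 of 5 cases and the somatic forms in 1 of 5, where 22.2% of all tested genes were called lower, and 3 of the 5 somatic forms were called higher, where 11.8% of all tested genes were called higher. All cKO libraries lay below all control libraries for 5 of 5 testis forms and 1 of 5 somatic forms, against 28.6% of all tested genes, and above them for 3 of 5 somatic forms, against 21.8% of all tested genes. Nothing is read from these counts, because the pairs were chosen on this contrast. The median log2 fold change was −5.23 over the testis forms, 0.25 over the somatic forms and −0.0082 over all tested genes.

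Lactate dehydrogenase showed the highest level and the greatest loss of FPKM. Ldhc encodes the testis-specific C subunit, which sperm use for glycolysis in the flagellum. It stood at 387, 429 and 339 FPKM in controls 1 to 3 and at 0.685, 1.17 and 1.37 FPKM in cKO 1 to 3. Its cKO mean was 0.279% of the control mean, a 358-fold difference (log2 fold change −7.55 ± 0.15, SE, on log2(FPKM + 1)), and the lowest control library was 247 times the highest cKO library. In fragments this was 9273 to 10384 per control library against 17 to 33 per cKO library, so that the cKO values rested on few but counted fragments. Ldha encodes the A subunit of most somatic tissues and fell together with Ldhc. It stood at 67.8, 71.9 and 56.8 FPKM in controls 1 to 3 and at 1.69, 2.35 and 1.79 FPKM in cKO 1 to 3. Its cKO mean was 2.97% of the control mean, 33.7-fold lower (log2 fold change −4.50 ± 0.13, SE). Both genes were therefore far below every control library. The third lactate dehydrogenase gene with a clear level, Ldhb, which encodes the heart-type subunit, had 10.1 to 13.0 FPKM among controls and 9.79 to 19.7 FPKM among cKO libraries, which overlapped (log2 fold change 0.20 ± 0.24, SE; limma adjusted p = 0.55). In the cKO libraries the level of Ldhb was therefore above those of Ldhc and Ldha in all 3 libraries, whereas in control libraries it was below both.

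Phosphoglycerate kinase was the pair in which only the somatic form remained above 1 fragment. Pgk2, the retrogene used by spermatocytes and spermatids, stood at 46.8, 101 and 39.7 FPKM in controls 1 to 3. In cKO libraries it was listed at 0, 0 and 0.0405 FPKM, and the last value was 1 fragment. Over all libraries of a group, 4896 fragments in control faced 1 fragment in cKO, a ratio of 4543 after scaling for depth (95% exact interval 815 to 179464, counting error only). The fitted log2 fold change of −5.85 ± 0.32 (SE) understates this, because a level of 0 enters as a pseudocount. Pgk1, the X-linked gene of somatic cells, stood at 16.0, 13.2 and 15.3 FPKM in controls 1 to 3 and at 19.5, 19.3 and 18.3 FPKM in cKO 1 to 3. Every cKO library was above every control library, by a mean of 1.29-fold (log2 fold change 0.35 ± 0.09, SE). The rise was small beside the loss of Pgk2, and the summed FPKM of the pair in cKO was 24.6% of control. Of 100-base windows of the Pgk1 transcript 67.0% also occur in another annotated gene, but the pseudogenes with such stretches held 2 to 5 fragments per library. How fragments with several matches were counted is not given in the sources used here.

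By listed FPKM, glyceraldehyde-3-phosphate dehydrogenase RNA in control libraries came mostly from the testis form. Gapdhs encodes the isozyme bound to the fibrous sheath of the sperm tail. It stood at 78.4, 213 and 77.1 FPKM in controls 1 to 3 and at 1.78, 1.87 and 2.17 FPKM in cKO 1 to 3, a 63.4-fold lower mean (log2 fold change −5.23 ± 0.37, SE). Control 2 was 2.74 times the mean of the other control libraries, yet the lowest control library was still 35.6 times the highest cKO library. Gapdh, the common reference gene of somatic tissues, was listed at only 1.09, 1.25 and 1.06 FPKM among controls and 1.69, 1.22 and 1.48 FPKM among cKO libraries. These ranges overlapped (log2 fold change 0.21 ± 0.14, SE), and each rested on 74 to 110 fragments. With a mean of 1.13 FPKM in control, Gapdh was the lowest of the 10 genes.

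The Gapdh level is uncertain, and near copies of its sequence held more fragments than the gene itself in every library. Of its transcript 88.0% is at least 95% identical to a stretch of another annotated gene, and 77 of the 81 genes concerned are pseudogenes. Those pseudogenes held 696, 247 and 144 fragments in controls 1 to 3 and 1066, 1033 and 207 fragments in cKO 1 to 3. The most fragments lay in Gm13394, a processed pseudogene on chromosome 2, with 600, 3 and 6 fragments in controls 1 to 3 and 895, 854 and 8 fragments in cKO 1 to 3. Its high libraries were thus control 1, cKO 1 and cKO 2, which cut across genotype. Gapdh and its pseudogenes together came to 45.4, 21.2 and 12.7 CPM (fragments scaled to the library total) in controls 1 to 3 and 76.7, 75.0 and 20.8 CPM in cKO 1 to 3, which overlapped. Gapdhs itself came to 123, 342 and 124 CPM in controls 1 to 3, above that sum in each, and to 2.94, 2.98 and 3.67 CPM in cKO 1 to 3, below it in each. The table also divides by a gene length of 4133 bases where the main transcript has 1420, and with the latter Gapdh would stand at 3.30 ± 0.29 FPKM for controls and 4.27 ± 0.69 FPKM for cKO libraries (SD, n = 3). Gapdhs overlaps the antisense gene Tmem147os, and Gapdh and Pdha1 overlap Iffo1 and Map3k15 on the opposite strand. Whether strand was used in counting is not given in the sources used here.

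The pyruvate dehydrogenase subunits moved by less. Pdha2, the retrogene form of the E1 alpha subunit, stood at 29.7, 35.6 and 26.3 FPKM in controls 1 to 3 and at 16.1, 13.6 and 15.8 FPKM in cKO 1 to 3. Its cKO mean was 49.6% of the control mean (log2 fold change −0.96 ± 0.13, SE), and the groups did not overlap. Pdha1, the X-linked somatic form, stood at 3.76, 4.07 and 3.45 FPKM in controls 1 to 3 and at 5.05, 6.42 and 6.15 FPKM in cKO 1 to 3, a 1.56-fold higher mean (log2 fold change 0.53 ± 0.12, SE). The partners thus differed in opposite directions, each without overlap between genotypes. The testis form was still the larger of the pair, at 2.11 to 3.19 times Pdha1 in cKO against 7.60 to 8.75 times in control libraries.

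The cytochrome c genes also differed by less. Cyct, the testis isoform, stood at 55.2, 35.6 and 37.6 FPKM in controls 1 to 3 and at 21.1, 19.3 and 29.6 FPKM in cKO 1 to 3, which left 54.5% of the control mean (log2 fold change −0.84 ± 0.21, SE). Cyct and Pdha2 had no fixed order, since without control 2 the log2 fold changes were −0.96 for Cyct and −0.84 for Pdha2, and without cKO 3 they were −1.02 and −0.99. The highest cKO library lay close to the lowest control library, which exceeded it by 1.20-fold. Its call was lost without control 1 (log2 fold change −0.65), cKO 1 (−0.79) or cKO 2 (−0.72). Cycs, the somatic isoform, stood at 22.2, 18.9 and 20.5 FPKM in controls 1 to 3 and at 23.9, 25.2 and 24.5 FPKM in cKO 1 to 3, a 1.20-fold higher mean (log2 fold change 0.25 ± 0.08, SE). Of its transcript 35.0% is at least 95% identical to stretches of 51 other genes, which held 15907 to 20547 fragments per library. The 3 pseudogenes among them held 1 to 7 fragments per library. Whether shared stretches affected the Cycs level was not tested. The calls of the somatic forms also changed when libraries were left out, while the fold changes stayed near their values. All 3 of Pgk1, Pdha1 and Cycs lost their calls without control 3 (log2 fold changes 0.37, 0.48 and 0.25) or without cKO 3 (0.37, 0.49 and 0.25), 1 of the 3 remained called without cKO 1 or without cKO 2, and 2 without control 2.

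**Figure D2:**
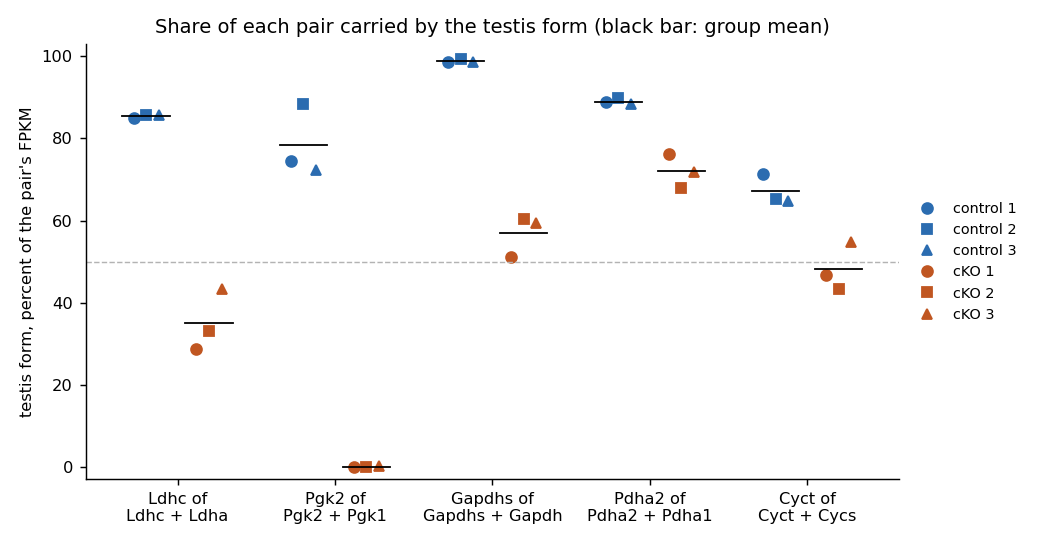
Share of the summed FPKM of each pair that came from the testis form, in percent, for each control (blue) and cKO (orange) library, with black bars for group means and a dashed line at 50%. Control shares ran from 64.7% to 99.4%, and in every pair all cKO shares lay below all control shares.

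Read as shares, the testis form made up the larger part of every pair in control libraries. Ldhc took 85.5% ± 0.32 of the summed FPKM of its pair in control and 35.1% ± 7.5 in cKO libraries (SD, n = 3 each). Pgk2 took 78.4% ± 8.8 in control and 0.0736% ± 0.13 in cKO libraries. Gapdhs took 98.9% ± 0.45 in control and 57.0% ± 5.0 in cKO libraries, but its cKO share was 34.2% in fragments not divided by length and 35.0% with the length of the main transcript, and the share leaves out the fragments of Gapdh pseudogenes. The smaller share went with different changes of the partner, which was far lower for Ldha, higher for Pgk1 and overlapping for Gapdh. Pdha2 took 89.0% ± 0.70 in control and 72.0% ± 4.1 in cKO libraries. Cyct took 67.1% ± 3.7 in control and 48.3% ± 5.8 in cKO libraries. The share of Pdha2 stayed above 50% in every cKO library, and that of Cyct in 1 of 3. Because shares compare different genes, they depend on the gene length used for each, and without division by length Ldhc took 73.7% in control and 20.7% in cKO libraries and Cyct took 28.3% in control and 15.4% in cKO libraries.

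The summed level of each pair was lower in cKO libraries, with no overlap on the FPKM scale. The cKO sum was 0.670% of the control sum for Ldhc and Ldha, 2.75% for Gapdhs and Gapdh, 24.6% for Pgk2 and Pgk1, 61.3% for Pdha2 and Pdha1, and 75.6% for Cyct and Cycs. For Gapdhs and Gapdh it was 4.32% without control 2, likewise 4.32% in raw fragments, and 27.3% in CPM when the fragments of the Gapdh pseudogenes were added, with sums of 168, 363 and 137 CPM in controls 1 to 3 and 79.7, 78.0 and 24.4 CPM in cKO 1 to 3. In raw fragments the cytochrome c sums overlapped, with 1344 to 1841 in control and 1443 to 1563 in cKO libraries. By FPKM, Ldhc, Ldha and Gapdhs stood at 2.35 or less in every cKO library, while Gapdh was listed at 1.06 to 1.25 FPKM in control already. With the length of the main transcript, Ldha had 3.17 to 4.41 FPKM among cKO libraries.

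With the gene lengths of the table, the order of levels was turned over between genotypes. In control libraries Ldhc was highest at 385 ± 45 FPKM (SD, n = 3), followed by Gapdhs at 123 ± 78 FPKM, and neither overlapped the gene ranked next. Ldha (65.5 FPKM), Pgk2 (62.6 FPKM), Cyct (42.8 FPKM) and Pdha2 (30.5 FPKM) came next, and each of these overlapped its neighbour. Cycs (20.5 FPKM), Pgk1 (14.8 FPKM), Pdha1 (3.76 FPKM) and Gapdh (1.13 FPKM) followed, each without overlap. In cKO libraries Cycs (24.6 FPKM), Cyct (23.3 FPKM) and Pgk1 (19.0 FPKM) were highest, and Cyct overlapped both of the others. Pdha2 and Pdha1 came next, and Ldhc was ninth at 1.08 FPKM, with Pgk2 last. With the length of the main transcript, Ldha had 106 to 135 FPKM in control and overlapped Gapdhs at 90.7 to 250 FPKM, and in cKO libraries the means of Ldha (3.64 FPKM) and Gapdh (4.27 FPKM) were above that of Gapdhs (2.28 FPKM). Among all tested genes Ldhc moved from percentile 99.7 in control to percentile 12.2 in cKO libraries.

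**Figure D3:**
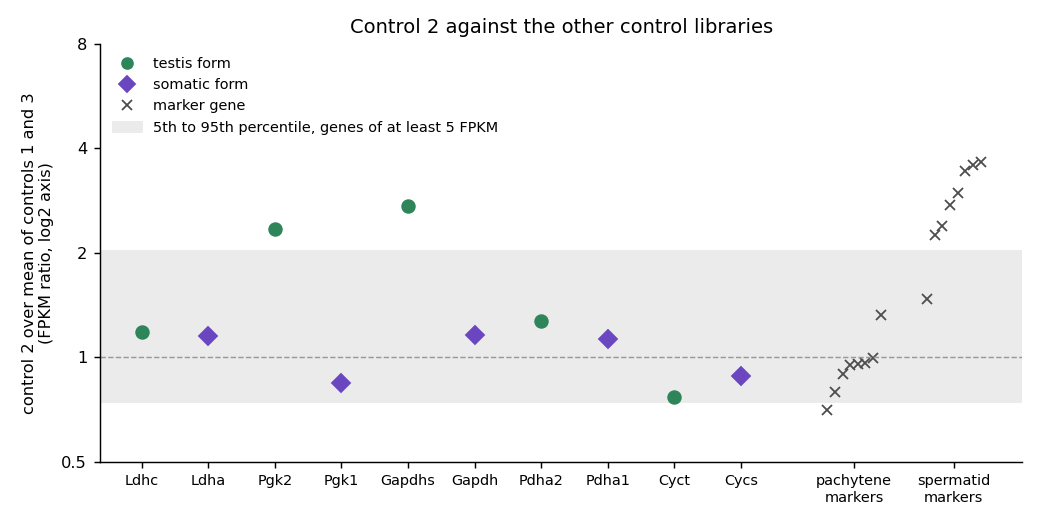
FPKM of control 2 divided by the mean of controls 1 and 3 on a log2 axis, for testis forms (green circles), somatic forms (purple diamonds) and marker genes (crosses), with a grey band from 0.742 to 2.02 for the middle 90% of genes of at least 5 FPKM. Gapdhs (2.74) and Pgk2 (2.34) lie above the band beside most spermatid markers, while the other members lie within it.

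The testis forms also differed in how far they varied among the control libraries. Control 2 held 2.74 times the Gapdhs and 2.34 times the Pgk2 of the other control libraries. For Pdha2, Ldhc and Ldha the ratio was 1.27, 1.18 and 1.15, and for Cyct it was 0.766. Across 9230 genes of at least 5 FPKM in control the median ratio was 0.98, with 5th and 95th percentiles of 0.742 and 2.02. Spermatid markers had a median ratio of 2.86, spermatogonial markers 1.17, pachytene markers 0.953 and early meiotic prophase markers 0.791. Of these 4 medians the nearest was the spermatid one for Gapdhs and Pgk2, the spermatogonial one for Pdha2, Ldhc and Ldha, and the early meiotic prophase one for Cyct. The Sertoli median of 0.729 also lay near Cyct. Spermatogonial markers had a median log2 fold change of 0.30 in cKO, and limma called 0 of 6 lower. In which stage a member was expressed was not tested. The control 2 ratios rest on 1 library against 2, so they describe these libraries and have no test. Without control 2 the log2 fold changes were −4.75 for Gapdhs and −5.45 for Pgk2, and both stayed called.

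The other steps of glycolysis gave a mixed picture. Of 22 tested genes of glycolysis and lactate transport outside the members, 9 were called lower and 1 higher, where 22.2% of all tested genes were lower and 11.8% higher, with a median log2 fold change of −0.26 against −0.0082 over all tested genes. Pgam2, a phosphoglycerate mutase known from muscle and germ cells, fell from 118 to 156 FPKM in control to 3.33 to 5.68 FPKM in cKO libraries (log2 fold change −4.63 ± 0.18, SE; limma adjusted p = 5.2e-06). Slc2a3, a glucose transporter with high affinity, fell from 58.1 to 84.3 FPKM to 2.71 to 3.16 FPKM (log2 fold change −4.12 ± 0.14, SE; limma adjusted p = 4.0e-06). The pyruvate and lactate transporter Slc16a7 fell with a log2 fold change of −2.84 ± 0.33 (SE), and hexokinase Hk1 with −2.50 ± 0.29 (SE). Control 2 was also the highest control library for Hk1, at 46.6 FPKM against 21.9 and 21.1 FPKM, and for Slc16a7, at 13.2 FPKM against 5.12 and 5.17 FPKM. The lower genes further included Tpi1, Pfkm, Pfkp, Eno3 and Bsg. Slc16a1, the widely expressed lactate transporter, was called higher (log2 fold change 0.35 ± 0.11, SE; limma adjusted p = 0.043), a call lost without any of the control libraries or without cKO 1. The somatic mutase Pgam1 (57.3 to 65.4 FPKM in control, 57.5 to 79.2 FPKM in cKO libraries) and the aldolase Aldoa (45.2 to 68.5 FPKM and 39.7 to 48.3 FPKM) were not called. Aldoa has a further row in the table under the same symbol, and the row with the higher mean was used.

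**Figure D4:**
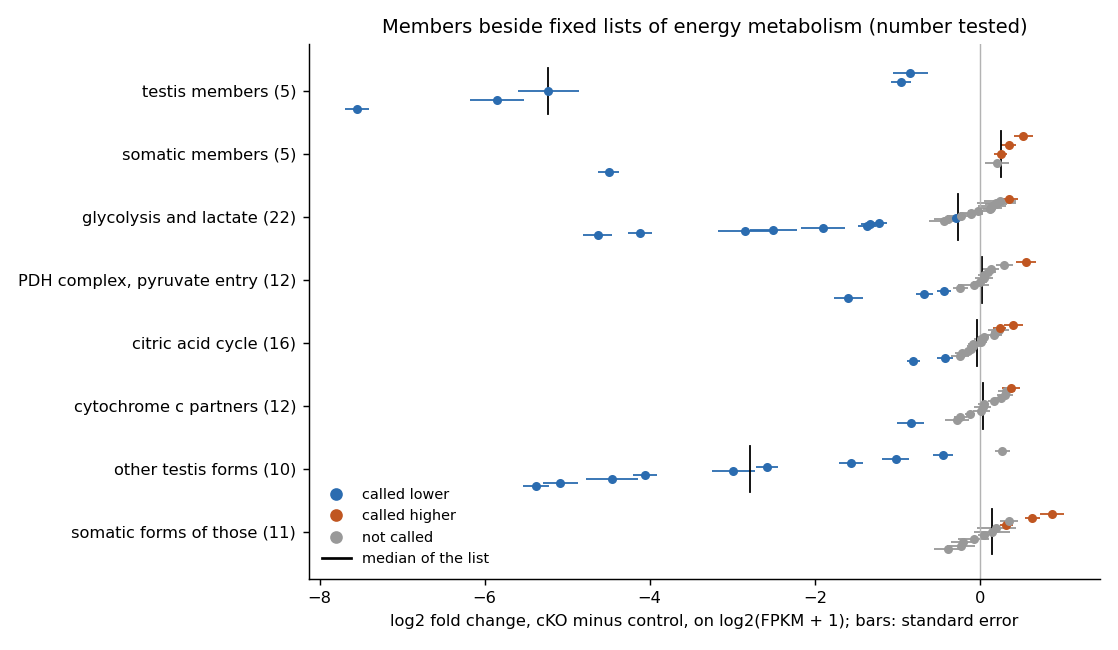
Log2 fold changes (cKO minus control on log2(FPKM + 1)) with standard errors for the members and for 6 lists of energy metabolism genes, with the number tested in brackets. Blue points were called lower, orange points higher and grey points not called, and black bars mark medians, which were −5.23 for the testis members, −2.78 for the other testis forms and between −0.26 and 0.25 for the remaining lists.

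The mitochondrial lists around Pdha1, Pdha2 and cytochrome c had medians near 0. Their counts stand beside 22.2% lower and 11.8% higher over all tested genes. In the pyruvate dehydrogenase complex, its kinases and phosphatases and the pyruvate carrier, 3 of 12 tested genes were called lower and 1 higher, shares near that background, with a median of 0.02. Pdk2, a kinase that switches the complex off, was the lowest at −1.59 ± 0.17 (log2 fold change, SE), followed by Dlat, the E2 subunit, at −0.68 ± 0.10, and the carrier subunit Mpc2 at −0.44 ± 0.08. The kinase Pdk1 was called higher at 0.56 ± 0.12, but not without cKO 3. Pdhb, the E1 beta subunit that pairs with both E1 alpha forms, was at 38.8 to 46.8 FPKM among controls and 34.2 to 38.9 FPKM among cKO libraries and was not called (log2 fold change −0.24 ± 0.09, SE; limma adjusted p = 0.084), nor was Pdk3.

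In the citric acid cycle 2 of 16 genes were called lower and 2 higher, with a median of −0.04. Sucla2 (−0.81 ± 0.07) and Suclg1 (−0.42 ± 0.10), subunits of succinyl-CoA ligase, were lower, and Mdh2 (0.40 ± 0.11) and Suclg2 (0.24 ± 0.08) were higher, all as log2 fold change with SE. Neither of the higher genes was called without control 1, control 3, cKO 1 or cKO 3, and the count of higher genes was 1 without cKO 2. Without cKO 3, 1 gene was called lower. Citrate synthase, Cs, had 71.0 to 79.0 FPKM among controls and 75.5 to 80.0 FPKM among cKO libraries and was not called, nor was Sdhd. Of 12 partners of cytochrome c in respiration and apoptosis, 1 was called lower and 1 higher. Bak1 was lower (−0.84 ± 0.16) and Bax higher (0.37 ± 0.11), both of which permeabilise the outer mitochondrial membrane to release cytochrome c, and Cox4i1 and Cox5b were not called. The count of higher partners was 0 without control 1, control 3, cKO 1 or cKO 2 and 2 without control 2, and that of lower partners was 0 without control 1 or control 2, where Bak1 averaged under 1 FPKM and was not tested.

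Most other testis forms of energy metabolism were lower in cKO libraries. Of 12 genes listed, 11 were in the table, 10 were tested and 9 were called lower, against 22.2% of all tested genes, with 0 called higher by limma (1 by limma-voom and 1 at an unadjusted p under 0.05) and a median log2 fold change of −2.78. Gk2, a glycerol kinase retrogene, stood at 45.1, 59.2 and 43.0 FPKM among controls and at 0.102, 0.400 and 0.105 FPKM among cKO libraries (log2 fold change −5.38 ± 0.16, SE), while its X-linked parent Gk had 1.37 to 1.73 FPKM and 1.03 to 1.49 FPKM and was not called. Gykl1, a further glycerol kinase-like gene, had 26.3 to 47.2 FPKM in control libraries and 1 fragment in all cKO libraries together. The aldolase retrogene Aldoart2 (log2 fold change −4.46 ± 0.32, SE) fell while Aldoa was not called, and the citrate synthase-like gene Csl (−4.06 ± 0.15) fell while Cs was not called. Slc25a31, the germ cell ADP/ATP carrier, was the exception, with 140 to 150 FPKM among controls and 160 to 196 FPKM among cKO libraries (log2 fold change 0.27 ± 0.09, SE; limma adjusted p = 0.054), which did not overlap, and it was called higher without cKO 1. Its somatic partner Slc25a4 (3.74 to 6.54 FPKM and 4.24 to 7.10 FPKM) was not called. Aldoart1 (−2.99 ± 0.26), the enolase Eno4 (−1.56 ± 0.15) and Cox8c (−2.58 ± 0.13), a subunit of cytochrome c oxidase, were lower, all as log2 fold change with SE. Their partners Eno1 (−0.39 ± 0.16) and Cox8a (0.35 ± 0.11) were not called, at limma adjusted p of 0.11 and 0.052, nor was the pyruvate carrier subunit Mpc1 (12.3 to 19.0 FPKM and 13.3 to 18.8 FPKM). Of the 11 somatic forms of these proteins limma called 3 higher, against 11.8% of all tested genes, and 0 lower (0 lower by limma-voom, 1 at an unadjusted p under 0.05, and 1 without control 3). The higher genes were Cox7b (0.87 ± 0.15), Slc25a5 (0.63 ± 0.09) and Cox6b1 (0.32 ± 0.08), given as log2 fold change with SE. The testis partners Cox7b2 (−0.44 ± 0.12) and Cox6b2 (−1.02 ± 0.16) were lower.

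Autosomal retrogenes of X-linked genes, the class of Pgk2 and Pdha2, differed among themselves. Of 7 others limma called 3 lower and 0 higher, against 22.2% and 11.8% of all tested genes (0 higher also by limma-voom and at an unadjusted p under 0.05, and 1 without control 2). Gk2, Cetn1 (47.3 to 66.6 FPKM in control, 0.274 to 0.970 FPKM in cKO libraries) and G6pd2 (2.49 to 4.08 FPKM, and 0 in each cKO library) were lower. Rpl10l had 97.1 to 118 FPKM among controls and 99.1 to 110 FPKM among cKO libraries, and Rbmxl2 had 79.1 to 91.0 FPKM and 91.9 to 94.8 FPKM, and neither was called. Of their 7 X-linked parents limma called 3 higher and 0 lower, against the same background (0 lower also by limma-voom and at an unadjusted p under 0.05), namely Rbmx (0.83 ± 0.15), Utp14a (0.62 ± 0.10) and Rpl10 (0.52 ± 0.08), beside Pgk1 at 0.35 and Pdha1 at 0.53 among the members. Cstf2 (17.2 to 20.6 FPKM in control, 17.5 to 23.2 FPKM in cKO libraries) and Cetn2 (16.1 to 20.1 FPKM and 18.5 to 22.0 FPKM) were not called.

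The genes whose profile over the 6 libraries was most like that of each testis form were sought among protein-coding genes, by the root mean square (RMS) difference of log2(FPKM + 1) after centring. For Ldhc they were Smcp, a protein of the sperm mitochondrial capsule (RMS 0.40), Odf1, a protein of the outer dense fibres of the tail, and 1700029F12Rik. For Pgk2 they were 1700013G24Rik (RMS 0.09), Spata20 and Actrt2, and for Gapdhs Tmco2 (RMS 0.04), Actl9 and Cabs1. Pdha2 had Sox6 (RMS 0.04), Cep89 and Dcaf12, and Cyct had Mlycd, malonyl-CoA decarboxylase (RMS 0.13), Gstt3 and 1700024B05Rik. When likeness was measured by Pearson correlation instead, 2 of these 3 genes were chosen again for Pdha2, 1 for Gapdhs and 0 for Ldhc, Pgk2 and Cyct, so that most of these names depend on the measure.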

How the data were processed

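Per the labels, total RNA of STRA8+ germ cells from mouse testes was sequenced, and the submitters' processing notes name HISAT2 2.0.5 and mm10. The authors deposited 1 table of FPKM values per gene and library, with gene lengths. The counting tool, the annotation and the handling of strand and of reads with several matches are not given in the sources used here. FPKM multiplied by gene length came to whole fragments for 100% of values (tolerance 0.001 fragments), which gave 14447887 to 17310353 fragments per library. The library size used in the listed FPKM was 0.971, 0.998 and 0.999 times that total in controls 1 to 3. In cKO 1 to 3 it was 1.03, 0.993 and 1.05 times the total. With FPKM recomputed from the totals, log2 fold changes were 0.39 for Pgk1, 0.57 for Pdha1 and 0.30 for Cycs, and 2287 genes were called higher. Intervals cover counting error only.

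Groups came from the genotype labels. Genes were kept where the mean over the 6 libraries reached 1 FPKM (15451 genes), and log2(FPKM + 1) was fitted with limma 3.58.1 (R 4.3.3) with an intensity trend, and genes were called at a Benjamini-Hochberg adjusted p of at most 0.05 over all of them. A fold change on this scale understates the change of low genes. P-values measure the spread between these libraries, which may be technical. The members and the gene lists were chosen with earlier results of these data known, so no p-value is given for members. Lists are described by counts and medians. Named in each list were up to 4 called genes with the largest fold change, up to 2 with the highest control mean among those not called, and each partner of the other testis forms. The other called genes of the glycolysis list, Ldhb, Dazl, Mael, Tex101, Spo11, Rhox5, Clu, Cldn11 and Gm13394 were named after their values were seen. For each testis form the 3 nearest protein-coding profiles were also named. The fit was tested on simulated data.

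Gene structure and coding sequences came from GENCODE M21 (GRCm38), upstream windows from RefSeq (GRCm38.p6), with all 10 members matched. Coding sequences were aligned globally with Biopython 1.88, and near copies of at least 100 bases at 95% identity were found with BLAST+ 2.17.0. Alternatives were other pseudocounts, filters and scalings, limma without the trend, limma-voom on the recovered fragments, the replicate number as a block, and leaving out each library in turn. Shares by the length of the main coding transcript, and the summed level of Gapdhs and Gapdh in fragments and with Gapdh pseudogenes, were added after seeing the data.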

Additional observations from a re-analysis of the deposited data

How the results depend on the processing

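No member's log2 fold change turned direction under any alternative. Every alternative reuses the values on which the pairs were picked, so a kept or lost call of a member describes the settings only. Ldhc, Ldha, Pgk2, Gapdhs and Pdha2 stayed called under every alternative run, with log2 fold changes from −7.65 to −7.31 for Ldhc, −4.60 to −4.29 for Ldha, −6.11 to −5.41 for Pgk2, −5.47 to −4.75 for Gapdhs and −1.06 to −0.83 for Pdha2, leaving aside limma-voom and the pseudocount of 0.1, which are on other scales. The calls of the small rises of somatic forms depended on the settings, and the causes were not tested, but the log2 fold changes stayed at 0.27 to 0.40 for Pgk1, 0.47 to 0.62 for Pdha1 and 0.19 to 0.30 for Cycs when each library was left out. Leaving out each library in turn gave 0 to 3 somatic forms called higher and 965 to 1752 genes called higher in all, against 3 and 1821. The lowest counts came without control 3 and cKO 3 (0 somatic forms each), and without cKO 3 (965 genes). The ranges for genes called higher in the lists were 0 to 1 for glycolysis, 0 to 1 for the pyruvate dehydrogenase complex, 0 to 2 for the citric acid cycle, 0 to 2 for cytochrome c partners, 0 to 1 for other testis forms and 0 to 1 for retrogenes. For genes called lower they were 1 to 3 for the citric acid cycle, 0 to 1 for cytochrome c partners (0 where Bak1 was below the filter and not tested) and 0 to 1 for the somatic forms of other testis forms.

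The replicate numbers do not pair the libraries (correlations of the deviations of same-numbered libraries −0.0014, −0.11 and 0.016). With the replicate block 891 genes were called higher, 1 somatic form (Pdha1) was called higher, and glycolysis, the citric acid cycle and cytochrome c partners had 0 called higher. The block changed no call of a testis form.

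Quantile normalization shifted the median over all genes by 0.22 (log2), to 0.21, called 5164 genes higher, and raised the share of higher calls among all calls from 34.6% to 67.1%. Gapdh was then called higher (log2 fold change 0.73, which includes that shift). Its counts called higher were 4 for glycolysis, 3 for the pyruvate dehydrogenase complex, 5 for the citric acid cycle, 5 for cytochrome c partners, 1 for other testis forms and 2 for retrogenes, with 1 lower in the citric acid cycle and 0 among cytochrome c partners. With a mean of at least 5 FPKM, where fewer genes were tested, 1950 genes were called lower, and the counts were 0 higher in the pyruvate dehydrogenase complex, with 3 higher and 0 lower among cytochrome c partners. Without a filter, and likewise without the trend, 0 genes were called higher in glycolysis, the citric acid cycle and cytochrome c partners. Recomputed FPKM and limma-voom each gave 2 higher in the pyruvate dehydrogenase complex, 4 among cytochrome c partners and 1 among other testis forms. A pseudocount of 0.1 gave 2 higher among cytochrome c partners. The share of higher calls was 42.7% with limma-voom, 26.5% without a filter and 23.7% with the replicate block.

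Shares within a pair depend on gene length. In fragments not divided by length, the control and cKO shares were 73.7% and 20.7% for Ldhc, 97.2% and 34.2% for Gapdhs, 83.5% and 61.9% for Pdha2, and 28.3% and 15.4% for Cyct. With the length of the main transcript they were 78.3% and 25.1% for Ldhc, 97.3% and 35.0% for Gapdhs, and 86.0% and 66.2% for Pdha2. In both, every share was lower in cKO than in control. Levels of a few fragments, as for Pgk2 in cKO libraries, carry wide counting error.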
